A study of Mus musculus with 6 samples.

Results

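The 43 collagen chain genes measured on these arrays were compared between cultured mouse dermal cells with and without forskolin and RepSox. The members were all genes whose symbol has the form Col, number, a, number, except Col17a1, among 19938 genes with a probe set of exactly 1 gene symbol. Each gene was read from 1 probe set, the brightest over the 6 arrays. Cells from the skin of neonatal C57BL/6 mice were kept for 2 days in medium, and their total RNA was hybridised to one-colour Affymetrix arrays. The 3 arrays named DMSO, after the solvent, carry no compound, and the 3 arrays named FR carry 20 µM forskolin with 20 µM RepSox. Forskolin activates adenylyl cyclase and RepSox inhibits the kinase of the TGF-β type I receptor. The compounds were given together, so their separate effects cannot be told apart. The labels name no transgene or sort.

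Collagens are extracellular proteins whose chains wind into a triple helix. Fibrillar collagens form the load-bearing fibrils of the dermis, FACIT collagens sit on the surface of such fibrils, and beaded collagen VI forms fine filaments between them. Basement membrane and network collagens assemble into sheets, anchoring fibrils of collagen VII tie the epidermis to the dermis, and a few collagens span the cell membrane. TGF-β signalling is a known inducer of the type I collagen genes in fibroblasts.

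Expression is given as log2 values, on which a step of 1 is a 2-fold change, and a change is the mean of the 3 FR arrays less that of the 3 DMSO arrays. A gene passed at a Benjamini-Hochberg adjusted p under 0.05 over all genes in limma, a linear model that shares its estimate of the spread between genes. Array medians lay from 6.21 to 6.22 in DMSO and from 6.24 to 6.30 in FR, and arrays correlated across genes with r from 0.993 to 0.996 within groups. Of 8 fibroblast markers Thy1, Vim, Dpt, Pdgfra and Pdgfrb had mean levels of 12.4, 12.2, 11.3, 11.2 and 10.0 in DMSO. Those of Twist2, Lum and Fap were 9.68, 8.95 and 5.46. The 95th percentile of olfactory receptor genes in DMSO, 5.65, was taken as the background level. These 1027 genes drifted upward with FR, with a median change of 0.14 and 102 called higher against 6 lower, and the part of this drift in small rises of dim collagen genes was not tested. Both group means of 5 collagen genes lay under it (Col4a3, Col4a4, Col4a6, Col19a1 and Col6a5), and 1 mean of Col9a1, Col8a2 and Col28a1. Where 1 group mean lay under that level, a fold is given as at least the value against it.

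Of the 43 collagen genes 20 passed (46.5%), against 27.9% of all 19938 genes. With FR 11 fell (25.6%), against 14.5% of all genes, and 9 rose (20.9%), against 13.4%. The 2 groups did not overlap for 14 collagen genes that were lower and 13 that were higher, against 20.9% and 23% of all genes. The remaining 23 did not pass, with changes from -0.25 to 0.27. A fall of at least 2-fold was found for 4 collagen genes (Col8a1, Col1a2, Col11a1 and Col1a1), against 1.5% of all genes, and a rise of that size for none, against 1.63%. The median change of the 43 was 0.07, beside 0.05 for all genes. The 3 largest rises were those of Col15a1, Col23a1 and Col3a1. In bulk RNA, fewer cells of a type and less RNA per cell cannot be told apart.

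**Figure D1:**
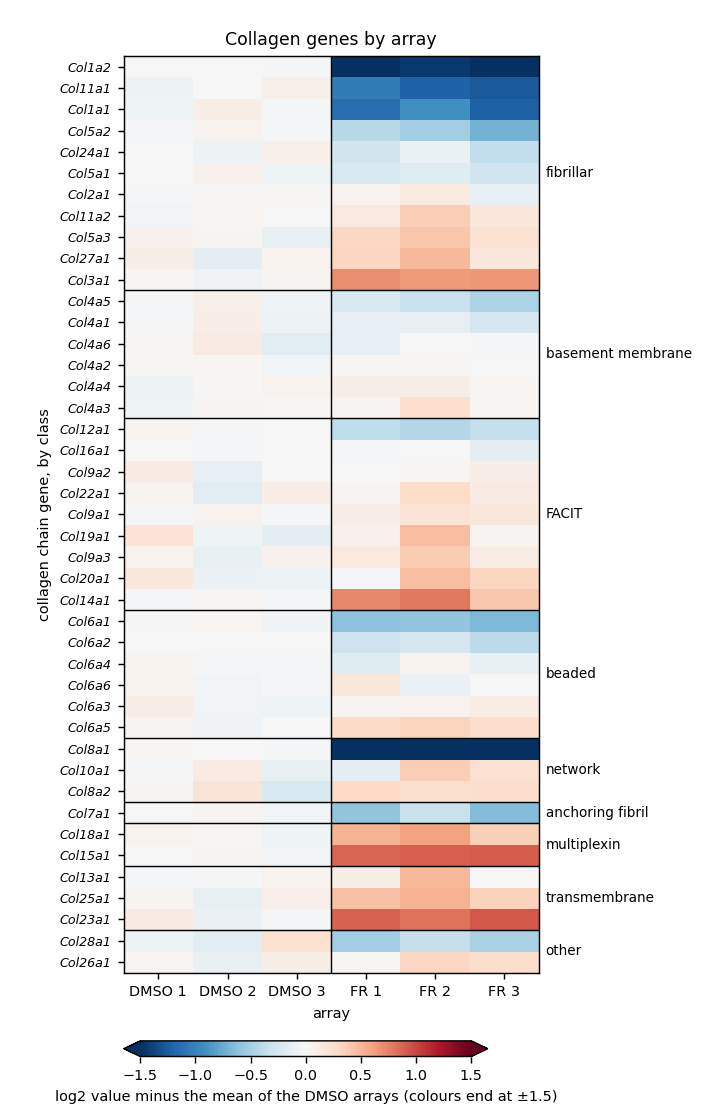
Log2 value of each of the 43 collagen genes on each array, minus the mean of that gene's 3 DMSO arrays, by class. Blue is lower and red higher, and the colours end at 1.5 either way, which Col8a1 passes on all 3 FR arrays and Col1a2 on 2 of them. The 3 FR arrays of Col8a1, Col1a2, Col11a1 and Col1a1 are blue and those of Col15a1, Col23a1 and Col3a1 red.

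The upstream sequences of the genes with the largest changes are shown because these genes moved in opposite directions. Of the 43 genes, 34 matched RefSeq promoter windows of GRCm38.p6 by gene identifier, with 37 windows in all. Col1a1, Col2a1, Col5a2, Col4a3, Col9a3, Col12a1, Col14a1, Col22a1 and Col26a1 were not analysed here for upstream sequence. The 250 bases before the annotated start are given 5′ to 3′ on the gene's strand. Capitals mark matches, on either strand, to 7 short motifs that were searched. The cyclic AMP response element was read as TGACGTCA. The AP-1 element was read as TGACTCA, with either C or G as its middle base. The SMAD half-site was read as CAGAC and the TEAD element as GGAATG. The TATA box was read as TATAAA. The CCAAT box was read by its name. The GC box was read as GGGCGG. None of these motifs contains another. The first 3 sequences belong to genes that fell.
Col8a1, chr16:57754738-57754987, minus strand: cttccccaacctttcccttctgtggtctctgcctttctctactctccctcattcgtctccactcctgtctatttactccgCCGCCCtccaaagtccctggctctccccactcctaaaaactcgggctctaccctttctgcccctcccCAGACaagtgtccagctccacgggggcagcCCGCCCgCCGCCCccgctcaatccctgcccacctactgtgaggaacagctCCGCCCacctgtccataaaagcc
Col1a2, chr6:4505368-4505617, plus strand: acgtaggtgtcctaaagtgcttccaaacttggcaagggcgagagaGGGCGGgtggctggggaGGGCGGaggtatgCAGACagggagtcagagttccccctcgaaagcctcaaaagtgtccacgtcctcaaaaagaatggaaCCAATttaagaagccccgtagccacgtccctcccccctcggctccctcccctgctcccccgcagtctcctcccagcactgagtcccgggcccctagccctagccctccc
Col11a1, chr3:114030290-114030539, plus strand: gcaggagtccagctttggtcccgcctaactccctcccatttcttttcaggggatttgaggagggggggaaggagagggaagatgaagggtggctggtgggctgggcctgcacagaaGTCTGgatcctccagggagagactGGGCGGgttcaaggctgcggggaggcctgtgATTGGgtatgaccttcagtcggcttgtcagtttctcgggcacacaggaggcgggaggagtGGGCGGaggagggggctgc
The next 3 belong to genes that rose.
Col15a1, chr4:47207762-47208011, plus strand: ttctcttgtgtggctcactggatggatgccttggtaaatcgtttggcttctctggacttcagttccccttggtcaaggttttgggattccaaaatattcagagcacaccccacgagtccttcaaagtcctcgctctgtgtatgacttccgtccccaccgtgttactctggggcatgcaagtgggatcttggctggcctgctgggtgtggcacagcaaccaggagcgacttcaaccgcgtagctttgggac
Col23a1, chr11:51289670-51289919, plus strand: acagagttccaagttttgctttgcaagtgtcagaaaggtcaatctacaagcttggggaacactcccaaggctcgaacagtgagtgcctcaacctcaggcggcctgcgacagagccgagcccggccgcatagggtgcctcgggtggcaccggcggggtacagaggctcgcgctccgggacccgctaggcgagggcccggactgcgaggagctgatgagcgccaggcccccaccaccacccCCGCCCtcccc
Col3a1, chr1:45311288-45311537, plus strand: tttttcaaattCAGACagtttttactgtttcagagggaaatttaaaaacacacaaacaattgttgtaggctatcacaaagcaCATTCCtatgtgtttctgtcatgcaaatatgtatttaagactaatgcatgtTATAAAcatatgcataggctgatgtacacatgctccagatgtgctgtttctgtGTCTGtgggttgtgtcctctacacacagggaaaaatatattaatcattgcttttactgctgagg

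The cyclic AMP response element was in 0 of the 37 collagen windows, beside 1.55% of all 32851 windows in the table. The AP-1 element was in 1 window, that of Col6a1, beside 4.46% of all windows. The SMAD half-site was in 17 of 37 windows, beside 42.2% of all, and by direction in 6 of 9 windows of genes that fell and 3 of 9 of genes that rose. These counts are of windows rather than genes, and 3 collagen genes had 2 or more windows. Of the genes that fell Col1a1, Col5a2 and Col12a1 had no window, and of those that rose Col14a1 had none. The GC box was in 22 of 37, beside 32.7%, with 7 of 9 windows of genes that fell and 6 of 9 of genes that rose. The CCAAT box was in 12 of 37 windows (33.8% of all), the TATA box in 4 (12.4% of all) and the TEAD element in 4 (12.6% of all). Col8a1 had 4 GC boxes, at 170, 73, 66 and 23 bases before its start, and a SMAD half-site at 103. Col3a1 had no GC box, 2 SMAD half-sites at 239 and 64 bases and a TATA box at 117. None of the motifs was in the window of Col15a1. A match describes the letters alone.

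Among the fibrillar collagens 4 of 11 genes fell, 3 rose and 4 did not pass, with a median change of -0.23. The genes of both type I collagen chains fell. Col1a2 read 10.76, 10.76 and 10.73 on the DMSO arrays and 9.19, 9.30 and 9.05 on the FR arrays, a 2.97-fold fall (log2 change -1.57, SE 0.09, adjusted p = 4.67e-07). Col1a1 read 10.29, 10.45 and 10.32 in DMSO and 9.21, 9.44 and 9.13 in FR (2.13-fold lower, adjusted p = 1.61e-05). For both genes every FR array lay below every DMSO array. Col3a1, whose product forms a homotrimer and is found in the same fibrils as type I collagen, went the other way. It read 10.01, 9.95 and 10.04 in DMSO and 10.69, 10.64 and 10.64 in FR, a 1.58-fold rise (adjusted p = 0.000118). The groups of Col3a1 did not overlap either, and its FR arrays were the least spread of the fibrillar genes (SD 0.03).

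Type V and type XI collagens regulate the start and the diameter of fibrils. Col11a1, known best from cartilage, read 7.47, 7.55 and 7.63 in DMSO and 6.5, 6.34 and 6.30 in FR, 2.25-fold lower (adjusted p = 4.42e-06). Its partner chain gene Col11a2 had a change of 0.23 that did not pass (adjusted p = 0.0805). Col5a2 read 9.68, 9.75 and 9.68 in DMSO and 9.29, 9.18 and 9.0 in FR, 1.46-fold lower (adjusted p = 0.0013). Col5a1 had a change of -0.23 (95% interval -0.41 to -0.05) that did not pass after adjustment (adjusted p = 0.0568), although its groups did not overlap. Its change was -0.28 after median centring (adjusted p = 0.0278), -0.13 with quantile normalization (0.234) and -0.14 with cyclic loess (0.205). Col5a3, a further chain of type V, rose 1.24-fold (adjusted p = 0.0243), and the minor fibrillar gene Col27a1 rose 1.26-fold (adjusted p = 0.0370). With 1 array fewer the changes stayed from 0.26 to 0.36 for Col5a3 and from 0.25 to 0.41 for Col27a1, but the calls could be lost. Col5a3 did not pass when DMSO replicate 2 (adjusted p = 0.0542), DMSO replicate 3 (0.103) or FR replicate 2 (0.0726) was left out. Col27a1 did not pass when DMSO replicate 1 (adjusted p = 0.0523), 2 (0.139) or 3 (0.0687) or FR replicate 1 (0.0664) or 2 (0.116) was left out, nor with the replicate number as a block (0.0666). The changes of the cartilage collagen gene Col2a1 and of Col24a1 were 0.02 and -0.25, and neither passed.

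The cartilage context was read from 8 marker genes. The defining genes Acan, Matn1, Comp and Hapln1 lay under the background level in both groups, as did Sox5 and Matn3, 6 of the 8. The log2 of the summed signal of the 8, in which Sox9 weighed most, was 8.98 to 9.05 in DMSO and 8.81 to 8.99 in FR. Their mean log2 was higher in FR, at 5.32 to 5.43 in DMSO and 5.48 to 5.59 in FR. Of the 8 markers 1 fell (Sox9, change -0.59) and 1 rose (Hapln1, whose groups overlapped). The part of these markers in the fall of Col11a1 was not tested.

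Of the 3 network collagen genes 1 fell and 2 did not pass, with a median change of 0.15. The fall of that 1 gene, Col8a1, was the largest of the family. Col8a1, a short-chain collagen known from vessel walls and the membrane under the corneal endothelium, read 9.14, 9.12 and 9.09 in DMSO and 6.13, 5.90 and 6.23 in FR. That is 8.18-fold lower (log2 change -3.03, 95% interval -3.25 to -2.82, adjusted p = 2.67e-08). The lowest FR array still lay above the background level of 5.65. The partner gene Col8a2 read 5.48, 5.63 and 5.21 in DMSO, under that level, and 5.74, 5.68 and 5.71 in FR, and did not pass (adjusted p = 0.0886). Col10a1, the collagen gene of hypertrophic cartilage, did not pass either (change 0.15, adjusted p = 0.408).

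**Figure D2:**
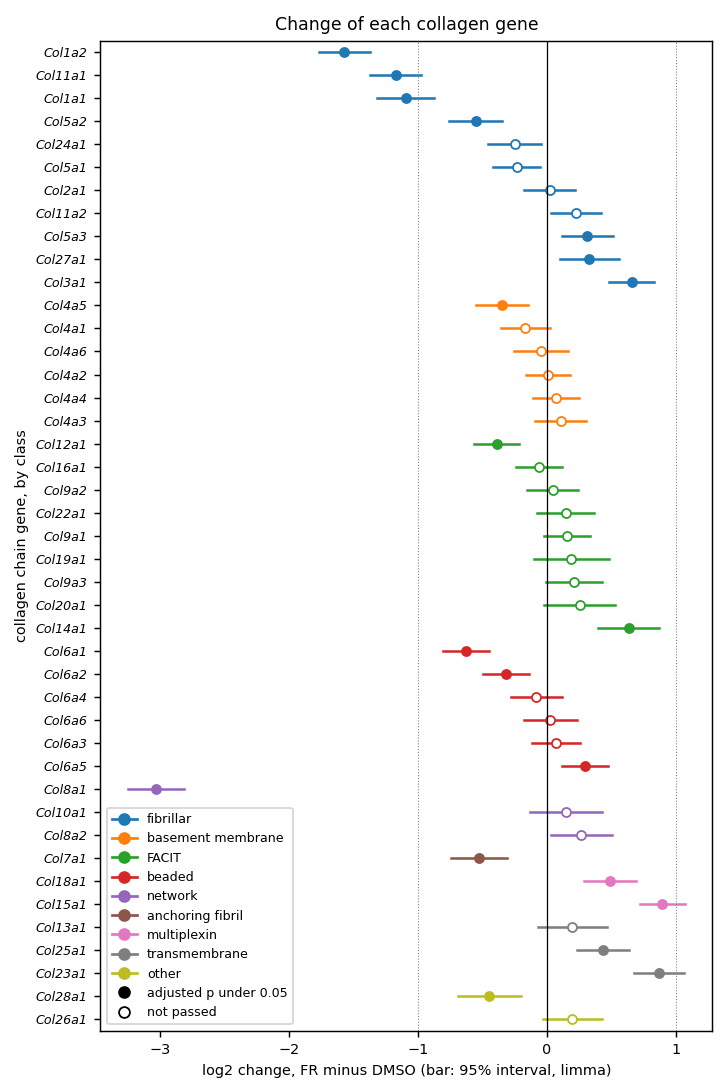
Log2 change, FR minus DMSO, of each of the 43 collagen genes with its 95% interval from limma, coloured by class. Filled points passed at an adjusted p under 0.05 and dotted lines mark 2-fold. Col8a1 stands at -3.03, and the largest rise is that of Col15a1 at 0.90.

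Beaded collagen VI is built mainly from the chains encoded by Col6a1, Col6a2 and Col6a3, and of these genes 2 fell and 1 did not pass. Col6a1 read 9.22, 9.23 and 9.15 in DMSO and 8.59, 8.6 and 8.52 in FR, 1.55-fold lower (adjusted p = 0.000174). Col6a2 read 8.39, 8.4 and 8.39 in DMSO and 8.09, 8.15 and 8.0 in FR, 1.25-fold lower (adjusted p = 0.0143). Without DMSO replicate 1 its adjusted p was 0.0506, and with cyclic loess 0.0545. Col6a3 read 10.67, 10.53 and 10.50 in DMSO and 10.61, 10.63 and 10.68 in FR, so the groups overlapped (change 0.07, 95% interval -0.12 to 0.26, adjusted p = 0.560). Of the alternative chain genes Col6a4, Col6a5 and Col6a6, Col6a5 passed with a change of 0.30 (adjusted p = 0.0186). Both its means lay under the background level, and it no longer passed after quantile normalization (adjusted p = 0.125) or when DMSO replicate 2 (0.078) or 3 (0.0592) was left out. Its second probe set gave a change of 0.65 (adjusted p = 0.00137 in limma, adjusted over all probe sets with 1 symbol). That probe set was dimmer still, under the background level on every array (4.47, 4.55 and 4.79 in DMSO and 5.34, 5.33 and 5.10 in FR).

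Of the 6 basement membrane genes 1 fell and 5 did not pass. Col4a1 and Col4a2, which encode the chains found in nearly all basement membranes, had changes of -0.17 (95% interval -0.36 to 0.02) and 0.01 (-0.16 to 0.18). Their genes lie head to head, with annotated starts 21 bases apart on opposite strands in the RefSeq table. Col4a5, whose chain is used in the basement membranes of kidney, skin and smooth muscle, read 6.44, 6.54 and 6.4 in DMSO and 6.23, 6.13 and 5.98 in FR, 1.27-fold lower (adjusted p = 0.0169). It did not pass when DMSO replicate 2 (adjusted p = 0.0717) or FR replicate 3 (0.0539) was left out. Its head-to-head neighbour Col4a6 had a change of -0.05 under the background level. Col4a3 and Col4a4, which encode partner chains of the kidney filter, had changes of 0.11 and 0.07, also under that level.

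Of 9 FACIT collagen genes 1 fell, 1 rose and 7 did not pass, beside 27.9% of all genes that passed. The 2 that passed both bind type I collagen fibrils and moved in opposite directions. Col12a1 read 11.62, 11.55 and 11.57 in DMSO and 11.20, 11.15 and 11.22 in FR, 1.31-fold lower (adjusted p = 0.00406). Col14a1 read 6.31, 6.35 and 6.31 in DMSO and 7.04, 7.11 and 6.72 in FR, 1.55-fold higher (adjusted p = 0.00119). FR replicate 3 of Col14a1 lay below the other FR arrays and still above every DMSO array. The changes of the cartilage FACIT genes Col9a1, Col9a2 and Col9a3 were 0.16, 0.04 and 0.21, and that of Col16a1 was -0.06.

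Both multiplexin genes rose. Their products lie in the basement membrane zone, and that of Col18a1 is the source of the fragment endostatin. Col15a1 read 6.13, 6.17 and 6.08 in DMSO and 7.0, 7.02 and 7.04 in FR, 1.86-fold higher (adjusted p = 1.14e-05). Col18a1 read 5.81, 5.78 and 5.69 in DMSO and 6.28, 6.36 and 6.12 in FR, 1.41-fold higher (adjusted p = 0.00226). Of the transmembrane collagens 2 of 3 rose. Col23a1 read 7.10, 6.89 and 6.94 in DMSO and 7.86, 7.79 and 7.90 in FR, 1.83-fold higher (adjusted p = 3.37e-05). Col25a1, needed in mice for motor axons to enter developing muscle, rose 1.35-fold (adjusted p = 0.00451). Col13a1, which encodes a collagen of the neuromuscular junction, had a change of 0.20 that did not pass (adjusted p = 0.251).

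Col7a1, the gene of the anchoring fibrils made by keratinocytes and fibroblasts, fell. It read 7.01, 7.04 and 6.97 in DMSO and 6.41, 6.67 and 6.36 in FR, 1.44-fold lower (adjusted p = 0.00236). Col28a1, a gene related to the collagen VI genes and known from peripheral nerve, was at least 1.28-fold lower, since its FR mean of 5.57 lay under the background level (log2 change -0.45, adjusted p = 0.012). Col26a1 did not pass (0.20, adjusted p = 0.176).

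Markers of other cell types moved between the same groups. Keratinocyte markers rose in 7 of 8 cases, and the log2 of their summed signal was 9.64 to 9.78 in DMSO and 11.3 to 11.4 in FR, with Krt1 under the background level in both. Skeletal muscle markers rose in 7 of 8 cases (8.97 to 9.10 and 10.2 to 10.4, with Myf5 under that level), and adipocyte markers in 7 of 8 (11.4 to 11.5 and 12.84 to 12.97, with Cidec under it). Fibroblast markers fell in 4 of 8 cases and rose in 2, with summed signals of 14.05 to 14.09 in DMSO and 13.79 to 13.82 in FR, and Fap under that level. The brightest genes, Thy1 and Vim, weigh most in that sum, and both fell. The mean log2 of the 8 fibroblast markers overlapped between the groups, at 10.12 to 10.17 in DMSO and 10.09 to 10.17 in FR. Of 8 endothelial markers 6 lay under the background level in both groups, including Pecam1, Kdr and the 2 that rose, Tek and Emcn. The other 2, Cdh5 and Vwf, did not pass. The log2 of the summed signal of all 8 was 8.23 to 8.29 in DMSO and 8.46 to 8.53 in FR. Such a sum over 8 genes is not comparable with the background level of 1 gene. Of 6 measured Schwann cell markers 1 rose and 1 fell, with Cdh19 under the background level. The log2 of their summed signal was 11.9 to 12.1 in DMSO and 11.7 to 11.9 in FR. Pmp22, with a DMSO mean of 11.6, weighed most in that sum. The DMSO means of Ncam1, Ngfr, S100b and Sox10 were 8.95, 6.70, 6.49 and 6.44. The mean log2 of the 6 also overlapped, at 7.20 to 7.25 in DMSO and 7.24 to 7.32 in FR. The part of these cell types in the collagen changes was not tested.

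Chains that assemble together, or whose genes are neighbours, were next compared within each array. Col1a1 and Col3a1 were also paired, although their products share fibrils rather than a helix. For each of 12 pairs the log2 value of one chain was subtracted from that of the other, and the FR and DMSO arrays were compared by an exact two-sided permutation test. With 3 arrays against 3 the smallest p this test allows is 0.1, and the smallest adjusted over the 12 pairs was 0.133, so 0 pairs could pass. The fall of Col1a2 was larger than that of Col1a1 by 0.48, with the FR arrays at 0.42, 0.54 and 0.47 above the DMSO mean of that difference (exact p = 0.1). The groups did not overlap for 9 of the 12 pairs, each with exact p = 0.1. The share of such pairs over all genes was not computed. In 3 of these 9 pairs the changes differed by 0.5 or more. They were Col8a1 and Col8a2 (-3.30), Col1a1 and Col3a1 (-1.75) and Col11a1 and Col11a2 (-1.40). The first of these is not an exact size, since the DMSO mean of Col8a2 lay under the background level. Within collagen VI the change of Col6a1 less that of Col6a2 was -0.31, and that of Col6a2 less that of Col6a3 was -0.39. Col5a1 and Col5a2 differed by 0.32, Col4a1 and Col4a2 by -0.18, and Col4a5 and Col4a6, the latter under the background level, by -0.30. The groups overlapped for Col4a3 and Col4a4 and for both pairs of collagen IX.

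**Figure D3:**
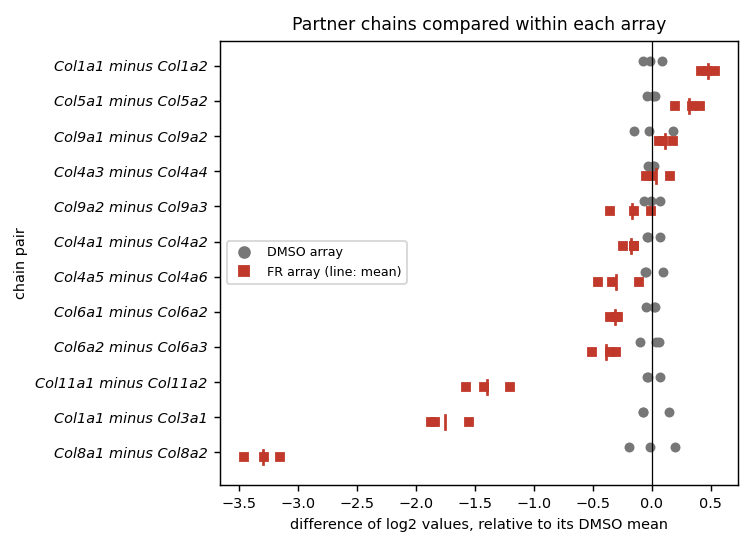
Difference between the log2 values of 2 chains on each array, relative to the mean of that difference in DMSO, for 12 pairs. Grey circles are DMSO arrays, red squares FR arrays and red lines FR means, and the FR arrays of Col8a1 minus Col8a2 lie at -3.29, -3.46 and -3.16, values that are not exact because Col8a2 was under the background level in DMSO.

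Of 8 adjacent pairs of collagen genes, 1 held a gene that rose and a gene that fell. Col3a1 and Col5a2 are adjacent among the protein-coding genes of mouse chromosome 1 in the RefSeq table, with log2 changes of 0.66 and -0.55. Col6a2 and Col6a1, adjacent on chromosome 10, changed by -0.32 and -0.63. On chromosome 9 Col6a5, which rose by 0.30 under the background level, lies between Col6a6 and Col6a4. The log2 changes of those neighbours, 0.03 and -0.08, did not pass. Those of Col9a1 and Col19a1 on chromosome 1, 0.16 and 0.19, did not pass either.

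The FR arrays were ordered alike across many collagen genes. FR replicate 2 was the highest of the 3 FR arrays for 31 of the 43 genes and FR replicate 3 the lowest for 25. Over all genes those shares were 40.7% and 40.2%. The median SD of a collagen gene was 0.06 in DMSO and 0.12 in FR, beside 0.09 and 0.12 over all genes. Without FR replicate 2 the counts were 12 lower and 7 higher, and without FR replicate 3 they were 10 lower and 9 higher.

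The genes that fold, process, bind and cleave collagen were read from 5 lists, beside shares over all genes of 14.5% lower and 13.4% higher. Of 17 measured folding and hydroxylation genes 7 fell and 2 rose, with a median change of -0.22. P4ha3, which encodes a subunit of the prolyl hydroxylase that stabilises the helix, read 9.18, 9.11 and 9.14 in DMSO and 6.94, 6.80 and 6.73 in FR, 5.0-fold lower (adjusted p = 5.1e-08). P4ha1 fell by 0.68 on the log2 scale, and Plod2, a lysyl hydroxylase gene, by 0.87. P3h2, a prolyl 3-hydroxylase gene, was at least 2.55-fold higher, with a DMSO mean of 5.6 under the background level. The collagen chaperone gene Serpinh1 fell by 0.32.

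Genes of propeptide cleavage and crosslinking fell in 5 of 11 measured cases and rose in 4, with a median of -0.19. The crosslinking oxidase gene Lox fell from 11.3 to 9.59 (3.20-fold lower, adjusted p = 2.59e-07) and Loxl3 2.94-fold. Tll1, which encodes a propeptide-cleaving protease, was at least 2.28-fold lower, and the enhancer gene of that cleavage Pcolce fell by 0.64. Those that rose were Bmp1 (0.47) and Tll2 (0.49, under the background level), both of the same protease family as Tll1, and Adamts3 (0.50) and Adamts14 (0.39), which encode amino-propeptide proteases. Members of this protease family changed in both directions.

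Of 9 measured receptor and uptake genes 3 fell and 2 rose, with a median of -0.19. Itga11, which encodes the α chain of a receptor for fibrillar collagen, fell 6.44-fold (adjusted p = 8.31e-08), its partner gene Itgb1 1.48-fold and the collagen uptake receptor gene Mrc2 1.82-fold. Itga2, an α chain gene of another collagen receptor that keratinocytes also carry, rose 1.52-fold, and the receptor kinase gene Ddr2 rose 1.28-fold. Of 7 genes of collagen-cleaving proteases 4 fell and none rose, with a median of -0.75. Ctsk, a lysosomal collagenase gene, fell 3.12-fold, Mmp13 2.54-fold, Mmp14 1.68-fold, and Mmp8 at least 1.90-fold. Mmp2 had a change of 0.09 that did not pass (adjusted p = 0.437).

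Of 10 fibril-associated genes 4 fell and 3 rose, with a median of -0.19. Lum, a proteoglycan gene of the fibril surface, read 9.14, 8.61 and 9.08 in DMSO and 11.07, 11.00 and 11.29 in FR (4.51-fold higher, adjusted p = 1.18e-06). The fibronectin gene Fn1 fell 2.20-fold (adjusted p = 2.16e-06). Dpt and Bgn, which encode small matrix proteins that bind collagen, fell by 0.48 each. The proteoglycan gene Dcn rose by 0.48.

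**Figure D4:**
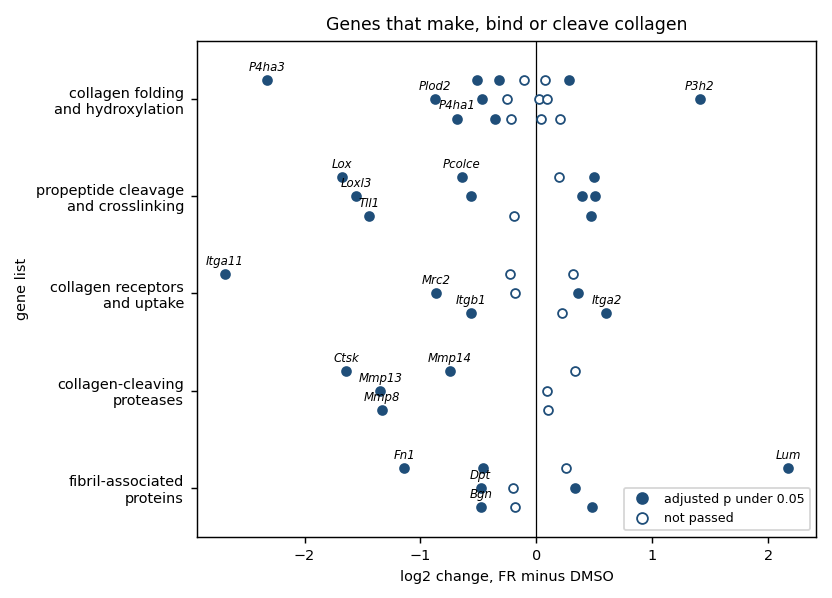
Log2 change, FR minus DMSO, of each measured gene of 5 lists of genes that fold, process, bind or cleave collagen. Filled points passed at an adjusted p under 0.05, height within a list has no meaning, and up to 4 genes with the largest changes among those that passed are named, from Itga11 at -2.69 to Lum at 2.17.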

How the data were processed

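The deposited table holds 1 log2 value per probe set and array, for 35556 probe sets on 6 arrays, with 0 missing values and 0 identical pairs of arrays. The authors' log2 values came from RMA (oligo package), per the submitters' processing notes. RMA in its common form corrects background and brings the arrays to 1 distribution, so a shift shared by all genes would be lost. Versions are not given in the sources used here. Arrays were grouped by title. Whether the samples are separate cultures is not stated in the labels, so the p-values cover no more than the spread of these arrays, perhaps a technical one, and the number of arrays limits the precision.

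Of the probe sets, 21789 had 1 gene symbol in the platform annotation, 1621 had several and 12146 had none listed. Only the first were used. All 43 members were found by identifier in the GRCm38.p6 gene table, and Col6a5 and Col6a6 had 2 probe sets. Coordinates are those of the RefSeq promoter table, since the build of the array is not named. The FR and DMSO arrays were compared over 19938 genes by the moderated linear model of limma 3.58.1 (R 4.3.3), two-sided, with no term but group. In simulated data for this comparison, 200 of 19938 genes were changed. The fit recovered 44% of genes changed by 0.5 and 91% of those changed by 1, with 8 false calls among 143. Many more genes, 5559, passed in the real data, so these shares are not the power of the real comparison.

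Genes named in full are the collagen genes that passed with at least a 2-fold change and their partner chains, with the largest changes of each class. Of each pathway list the 4 largest changes that passed are named. The other collagen genes, pathway genes and markers named beside them were picked with their values known. The members and lists were chosen with earlier results of these data known. The alternatives were 3 other normalizations (quantile, array medians, cyclic loess), averaging the probe sets of a gene, omitting dim genes, trended and robust moderation, weighted arrays, testing against a change of 0.5, a replicate block, and omission of every array in turn.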

Additional observations from a re-analysis of the deposited data

How the results depend on the processing

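Of the 20 collagen calls, 15 held under all alternatives other than the test against a log2 change of 0.5, and 0 reversed. That test left 4 collagen genes lower and 2 higher (Col8a1, Col1a2, Col11a1, Col1a1, Col15a1 and Col23a1) and 842 genes in all, against 5559, since it asks for a larger change. The calls lost elsewhere were those of Col27a1, Col5a3, Col4a5, Col6a2 and Col6a5. With the replicate number as a block the counts were 11 lower, 8 higher and 4977 genes in all. No pairing by number was seen in the values, since deviations of same-numbered arrays correlated with r of -0.07, 0.05 and -0.03. Whether same-numbered samples share an origin is not stated in the labels. Leaving out 1 array gave 10 to 12 collagen genes lower, 6 to 10 higher, 3 to 4 unequal pairs and 4033 to 5914 genes in all. Of the 23 genes that did not pass, 6 passed under some alternative, among them Col24a1 with quantile normalization (adjusted p = 0.0229). Median centring moved the median change of all genes from 0.05 to 0.01. Signal near background limits what can be said of the 8 genes with a mean under 5.65.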

Other observations

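Col17a1, a transmembrane collagen gene of the hemidesmosomes of basal keratinocytes that was not counted among the 43, read 6.20, 6.22 and 6.34 in DMSO and 6.79, 6.69 and 6.75 in FR. It was 1.41-fold higher (log2 change 0.49, SE 0.08, adjusted p = 0.00129 in limma), and its groups did not overlap. The keratinocyte gene Krt14 rose 3.0-fold and Trp63, the transcription factor gene of basal keratinocytes, 2.30-fold. Col7a1, which keratinocytes and fibroblasts both express, was 1.44-fold lower in the same arrays. The part of keratinocytes in these changes was not tested. The second probe set of Col6a6 gave a change of 0.10 (adjusted p = 0.571), beside 0.03 for the first.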
